A study of Mus musculus with 4 samples.

Results

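The mRNAs of the cytosolic ribosomal proteins were followed in an enhanced crosslinking and immunoprecipitation (eCLIP) of RPS2 (a small-subunit protein) in primary mouse cortical neurons. The rule for the members uses names alone. They are the protein-coding genes whose GENCODE M21 symbols have the form of an Rps or Rpl gene, with Rpsa, Rplp0, Rplp1 and Rplp2, and without the ribosomal S6 kinase genes and 6 pseudogenes that carry such names. This gave 84 members of the 31053 genes counted, 32 of the small and 52 of the large subunit. No measured value enters the rule.

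There were 2 groups of 2 libraries each, all from wild-type (WT) cultures without a transgene or added drug in the labels. In the RPS2 IP group RNA was trimmed with RNase I and pulled down with an antibody against endogenous RPS2. The total RNA group was set aside from the same samples ahead of the pulldown, so an IP and a total RNA library of the same replicate number form a pair. As treatment the labels list depletion of ribosomal RNA for both IP libraries and none for total RNA, and any effect of that step and of the pulldown cannot be told apart. Per the study's methods the cultures came from cortices of late-gestation C57BL/6J embryos and received floxuridine, which limits dividing cells but does not remove other cell types. All 6 neuron markers were counted in every library, with a summed level of 3027 to 3874 CPM, counts scaled to a fixed effective library size. The 5 astrocyte markers summed to 3163 and 2597 CPM in the IP and total RNA libraries of replicate 1, and to 1320 and 1168 in those of replicate 2. The 5 microglia markers summed to 60.1 and 59.5 CPM against 6.83 and 4.93, and P2ry12, Tmem119 and Cx3cr1 were at 0 in at least 1 library. Both lists thus differed more between replicate numbers than between IP and total RNA. Library totals ran from 4899718 to 16460545 counts, and the 84 members together held 24458 to 62104 of them. A single gene, Gm42418, took 42.6% and 27.9% of the counts in the IP libraries (replicates 1 and 2). In total RNA it took 39.8% and 15.3%.

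Each cytosolic ribosome is built from single copies of nearly all of these proteins, so their mRNAs are made in a common programme. Most of the mRNAs start with a short pyrimidine tract, the 5'TOP motif, through which mTOR signalling and LARP1 tune how much of each is translated. Many of the genes also carry small nucleolar RNAs (snoRNAs) in their introns, which are cut out of the precursor and guide chemical modification of ribosomal RNA and other RNAs. In neurons, ribosomal protein mRNAs are among those found in axons and dendrites as well as in the cell body.

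Some annotated small RNAs lie in exons that were counted, and their part in the counts was not tested. In 23 of the 84 members at least 50% of the bases of 1 or more annotated snoRNAs or small Cajal body RNAs lay in exons that were counted for the host gene, on the same strand. These members are called hosts below. The 23 hosts held 29 such small RNAs, 27 of them over their whole length, and 26 of the 29 lay in exons of transcripts annotated as retained introns. The count tables have 0 rows for small RNA genes and no read positions, so reads from a small RNA and from its host mRNA cannot be told apart. The sequences below are those in the hosts with the 3 lowest fold changes and in Rps2, the host with the highest. They come from the GENCODE M21 transcripts on mm10. Capitals mark GATG in the first 20 bases and CTGA in the last 14 for C/D box snoRNAs, and the last ACA for H/ACA box snoRNAs.
Snord33, in Rpl13a, chr7:45126864-45126947, minus strand: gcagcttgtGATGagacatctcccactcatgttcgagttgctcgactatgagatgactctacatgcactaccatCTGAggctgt
Gm26205, in Rpl6, chr5:121205010-121205143, plus strand: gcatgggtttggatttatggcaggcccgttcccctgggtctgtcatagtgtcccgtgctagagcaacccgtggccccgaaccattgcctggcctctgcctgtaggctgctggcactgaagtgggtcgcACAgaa
Snora33, in Rps12, chr10:23785347-23785475, minus strand: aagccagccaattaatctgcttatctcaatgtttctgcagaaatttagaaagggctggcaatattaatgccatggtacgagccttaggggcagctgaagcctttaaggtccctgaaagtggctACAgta
Snord100, in Rps12, chr10:23785750-23785823, minus strand: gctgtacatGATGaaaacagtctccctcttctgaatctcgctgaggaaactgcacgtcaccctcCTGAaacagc
Gm23130, in Rps12, chr10:23786470-23786543, minus strand: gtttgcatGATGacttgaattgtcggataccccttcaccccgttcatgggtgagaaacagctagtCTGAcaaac
Snora64, in Rps2, chr17:24720772-24720905, plus strand: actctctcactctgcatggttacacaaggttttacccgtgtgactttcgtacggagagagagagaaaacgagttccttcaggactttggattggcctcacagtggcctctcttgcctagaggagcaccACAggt

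The first question was which ribosomal protein mRNAs the antibody against RPS2 enriched over total RNA. Most were not called either way, and those that were went in both directions. Rps27l, Rps2, Rps15a, Rpl34 and Rplp1 were among the leading members that were higher in the IP, from 1.91-fold to 1.49-fold. Rpl13a, Rpl6, Rps12 and Rpl13 were among those that were lower, from 15.9-fold to 2.04-fold. Of the 84 members 80 passed the filter on low counts. The edgeR quasi-likelihood test, with the replicate number as a block and Benjamini-Hochberg adjustment over the 12336 genes tested, called 13 of the 80 higher (16.2%) and 14 lower (17.5%) at an adjusted p under 0.05. Over all genes tested it called 6.63% higher and 7.55% lower. The median log2 fold change of the 80 was 0.059, with 0.073 in pair 1 and 0.029 in pair 2, against 0.011 over all genes. Scaling by library totals alone gave 4 members higher and 14 lower, with 2.29% and 7.12% of all genes. Those totals include the counts of Gm42418. With that gene and the mitochondrially encoded genes left out, the blocked edgeR fit gave 13 members higher and 14 lower. Over all genes in that fit 821 were higher and 943 lower. Correcting for GC content and exonic length by an offset gave 7 and 19, with 5.17% and 2.14% of all genes. DESeq2 with the block gave 4 and 8 among the 59 members to which it gave an adjusted p, with 3.37% and 8.16% of all genes that had one. The edgeR fit without the block called 0 of the 80, and 8 had an unadjusted p under 0.05, against 2.83% of all genes, so every call named here rests on the pairing. With 1 residual degree of freedom the blocked edgeR fit gave each gene the spread of a trend shared by all genes. Its SE and adjusted p therefore do not reflect how far apart the 2 pairs of a given gene lay, and very small adjusted p are to be read with the values of each pair. For differences between replicate numbers, fewer cells of a type and less RNA per cell cannot be told apart in these bulk libraries.

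**Figure D1:**
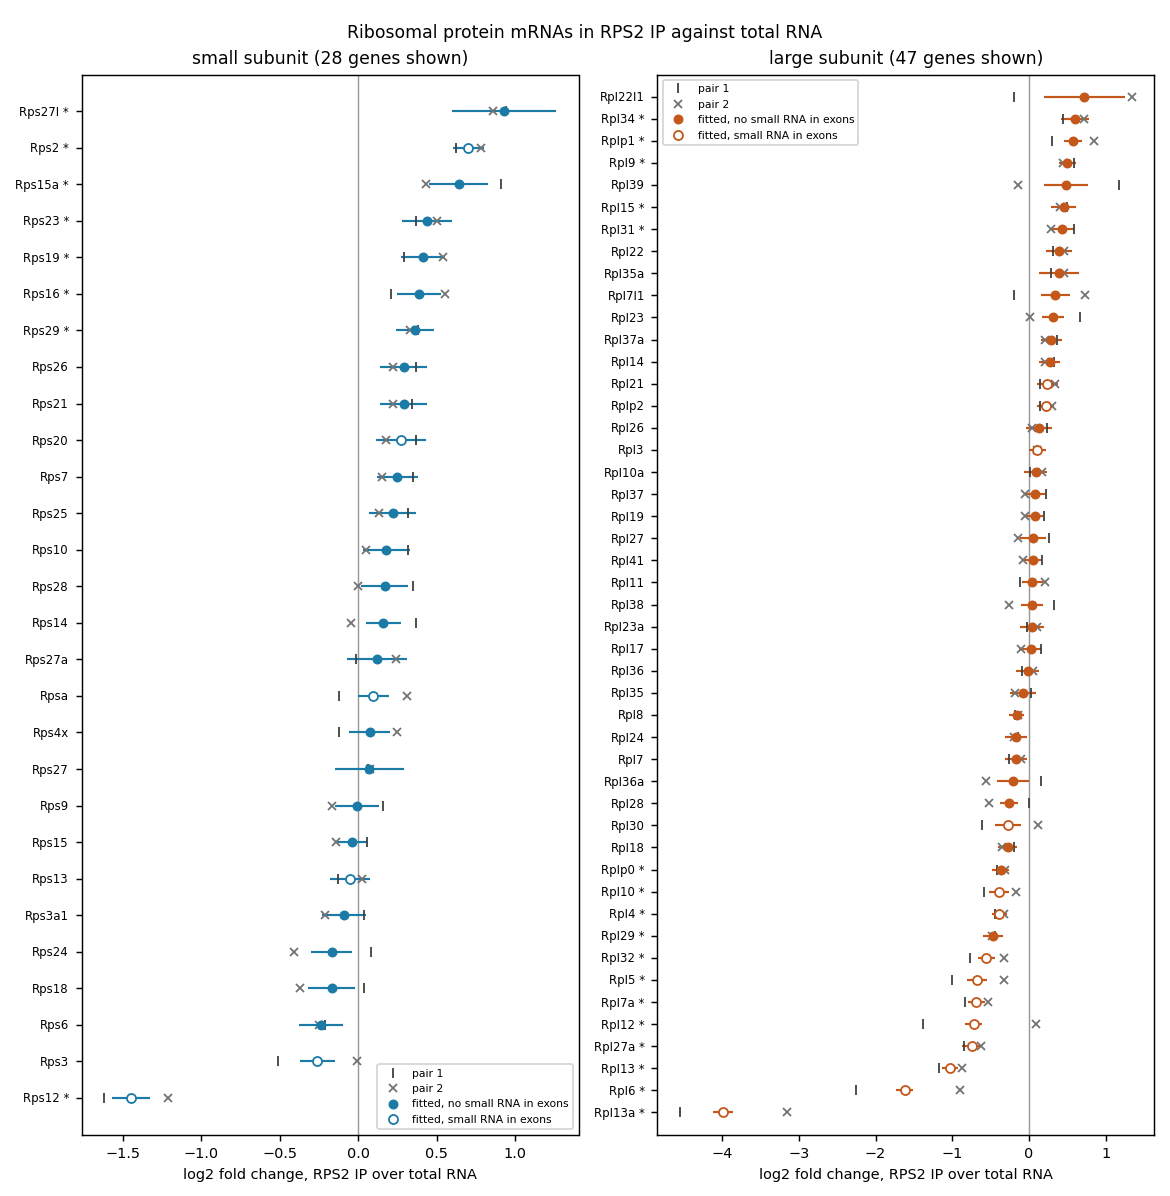
Log2 fold change of RPS2 IP over total RNA for 75 of the 80 members tested, with the small subunit on the left and the large subunit on the right. Circles are the fitted values with bars of 1 SE, ticks and crosses are the ratios within pair 1 and pair 2, open circles mark hosts, and asterisks mark the 25 of them that were called. The open circles fill the lower end of the large subunit panel, down to Rpl13a at -3.99.

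The members that were lower in the IP were mostly hosts of the large subunit. Of the 23 hosts, 12 were called lower (52.2%) and 1 higher. Their median log2 fold change was -0.39, against 0.12 for the other 57 members, of which 2 were lower and 12 higher. With the GC and length offset 15 hosts were lower and 1 higher at a median of -0.57, and of the other 57 members 4 were lower and 6 higher at a median of -0.0072. In the large subunit 11 of 15 hosts were called lower, at a median of -0.68, and in the small subunit 1 of 8 was lower and 1 higher, at a median of -0.084. Outside the ribosomal protein genes, 40 tested genes held a snoRNA or small Cajal body RNA in counted exons, and 22 of these (55.0%) were called lower and 1 higher, with a median of -0.47. Of the 7 members with small RNAs only in introns 1 was called higher and 0 lower, and their median was 0.084. Over all genes tested 6.63% were called higher and 7.55% lower, and 7 genes are too few to differ from such shares. These counts describe the lists and no test was run over them.

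Rpl13a (ENSMUSG00000074129, chromosome 7, 45125558 to 45128761), also known as part of an inhibitor of inflammatory translation outside the ribosome, was the lowest member. It measured 12.4 and 9.70 CPM in the IP against 297 and 87.8 CPM in total RNA (replicates 1 and 2). The IP libraries lay close together, and the total RNA libraries were far above them and far from each other. The fitted log2 fold change of -3.99 ± 0.13 (SE) had an adjusted p of 2.0e-191 in edgeR. Its level in the IP was 77th of the 80 members per kilobase of exonic length, whereas in total RNA it was 8th.

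Rpl6 (chromosome 5, 121204481 to 121209241), a large-subunit protein that the study also followed by other assays, measured 56.1 and 50.1 CPM in the IP against 267 and 93.9 CPM in total RNA. The log2 fold change was -1.62 ± 0.11 (SE, edgeR adjusted p = 2.6e-45). Rpl13 measured 79.5 and 58.4 CPM in the IP against 179 and 107 CPM in total RNA. Both groups were apart in Rpl6 and Rpl13, with the lowest total RNA library above the highest IP library. Rpl13 had a log2 fold change of -1.03 ± 0.11 (edgeR adjusted p = 4.9e-19). DESeq2, which lets a gene have a spread of its own, did not call Rpl6 (DESeq2 adjusted p = 0.0792). It did call Rpl13a (DESeq2 adjusted p = 3.4e-07) and Rpl13 (8.5e-09).

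Rps12 (chromosome 10, 23785183 to 23787275) was the only small-subunit member called lower in edgeR's blocked fit, where the GC and length offset gave 5, and its counted exons hold the 3 small RNAs printed above. It measured 50.7 and 20.6 CPM in the IP against 157 and 47.8 in total RNA. Here the groups overlapped, because the IP library of replicate 1 lay above the total RNA library of replicate 2. Within the pairs the log2 ratio was -1.62 and -1.21, and the fitted log2 fold change was -1.45 ± 0.12 (edgeR adjusted p = 2.1e-31). Rpl12, which sits at the base of the ribosomal stalk, measured 92.2 and 59.6 CPM in the IP against 240 and 56.2 in total RNA. It was lower in pair 1, with a log2 ratio of -1.38, and at 0.085 in pair 2. The fitted log2 fold change was -0.72 ± 0.11 (edgeR adjusted p = 1.1e-08), a call that DESeq2 did not make (adjusted p = 0.602).

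The other hosts called lower were Rpl27a, Rpl7a, Rpl5, Rpl32, Rpl4 and Rpl10, with log2 fold changes from -0.75 to -0.39 and edgeR adjusted p from 1.3e-08 to 0.0197. Of these 6 Rpl10 alone was not called in DESeq2 (adjusted p = 0.239). Rpl4, a protein that reaches into the exit tunnel for the growing chain, measured 241 ± 1.98 CPM in total RNA and 184 ± 13.2 in the IP (SD, n = 2), without overlap. It was the host with the closest total RNA libraries among the 12, and its 2 small RNAs were both C/D box snoRNAs. Among the 10 hosts that were not called were Rpl30, Rps3, Rps13, Rpsa, Rpl3, Rplp2, Rpl21 and Rps20. The log2 fold changes of these 8 ran from -0.27 for Rpl30 to 0.27 for Rps20. By their letters 15 of the 29 small RNAs matched the search for C/D snoRNAs and 13 that for H/ACA snoRNAs, and Snord68 in Rpl13 matched neither. A match of letters does not settle the class, and Gm22077 in Rpl3 matched the H/ACA search at a length of only 93 bases.

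**Figure D2:**
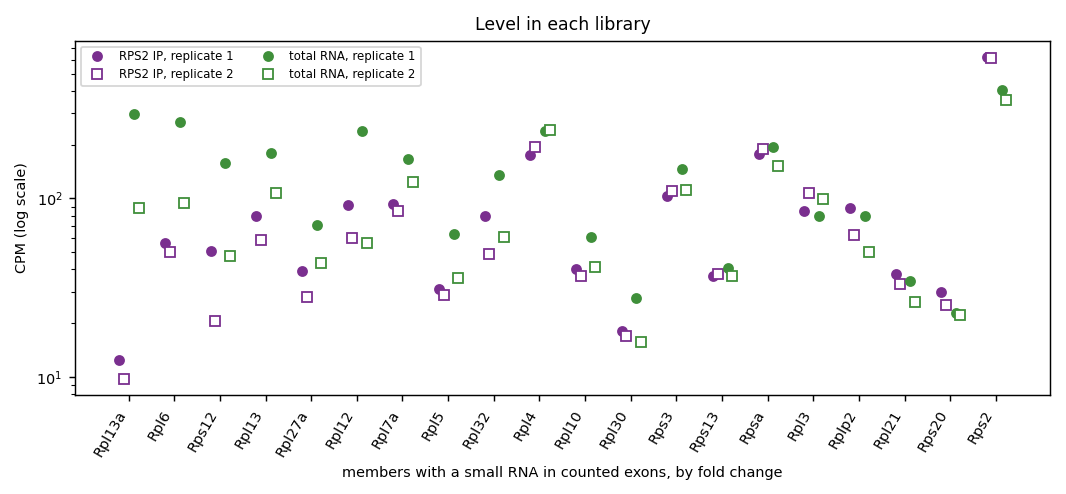
CPM on a log axis of 20 of the 23 hosts in each of the 4 libraries, ordered by fitted fold change from Rpl13a to Rps2. Filled circles are replicate 1 and open squares replicate 2. The green filled circles, total RNA of replicate 1, stand apart on the left, at 297 CPM for Rpl13a and 240 CPM for Rpl12.

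The total RNA library of replicate 1 stood apart in the hosts. The log2 ratio of replicate 1 over replicate 2 in total RNA was above 0 in 21 of the 23 hosts and above 0.5 in 13, with a median of 0.66. In the IP the same ratio had a median of 0.16 and passed 0.5 in 4 hosts. Among the other 57 members the total RNA ratio had a median of -0.038 and passed 0.5 in 3. It was 2.09 in Rpl12, the highest, 1.75 in Rpl13a and 1.71 in Rps12. The log2 ratio of IP over total RNA was lower in pair 1 than in pair 2 in 22 of the 23 hosts. Without total RNA replicate 1, in fits that leave out the block and so include the difference between cultures, Rpl12 turned to 0.43 and Rpl32 to 0.079. In those fits Rpl6 was at -0.82, Rps12 at -0.42, Rpl13 at -0.64, Rpl27a at -0.36, Rpl5 at -0.26 and Rpl10 at -0.11. Without total RNA replicate 2 Rpl12 was at -1.66, Rpl32 at -1.08, Rpl5 at -1.07 and Rpl10 at -0.66. Without IP replicate 1 Rps12 was at -2.31, Rpl12 at -1.31 and Rpl32 at -1.01, and without IP replicate 2 Rpl32 was at -0.31. The log2 fold changes of Rpl13a (-4.74 to -2.98), Rpl7a (-0.90 to -0.47) and Rpl4 (-0.47 to -0.32) moved by less than 1.5 times. That limit is a ratio of log2 values and not of folds, and on the fold scale Rpl13a moved further. The part of the small RNAs in these differences was not tested.

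**Figure D3:**
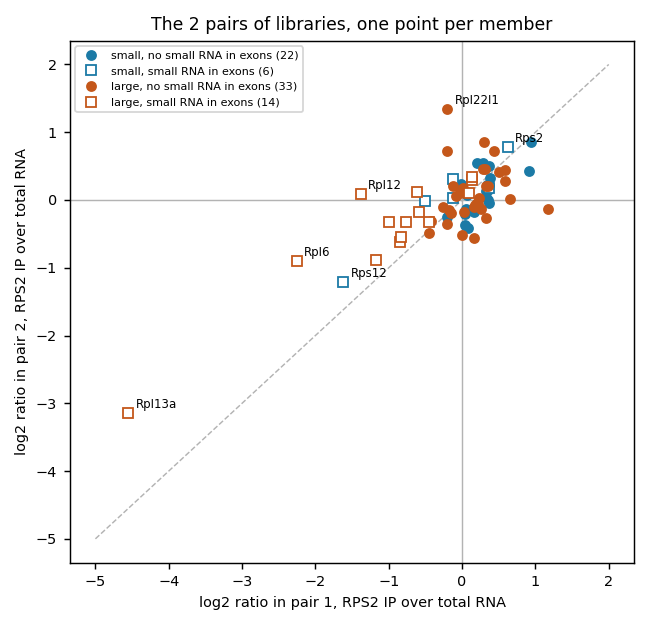
Log2 ratio of RPS2 IP over total RNA in pair 1 (horizontal) and pair 2 (vertical) for 75 of the 80 members, with the dashed line where both are equal. Squares are hosts and filled circles the other members. Hosts trail to the lower left above the line, with Rpl13a at -4.55 and -3.15, while most other members cluster around 0.

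The pairs share no library, and across the 80 members their log2 ratios had a Spearman correlation of 0.609. The value was 0.867 over the 23 hosts and 0.469 over the other 57, against 0.396 over all genes tested. All points come from the same 4 libraries, and genes are not independent replicates.

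Rps2 itself, whose protein lines the entry of the mRNA channel and was the target of the antibody, was by far the most counted member. It took 13.8% and 14.8% of all member counts in the IP libraries and 7.39% and 8.68% in total RNA. Rps2 measured 621 and 608 CPM in the IP against 403 and 355 CPM in total RNA, so both IP libraries were above both total RNA libraries. The log2 fold change was 0.70 ± 0.099 (edgeR adjusted p = 4.8e-10), with 0.62 in pair 1 and 0.78 in pair 2, and from 0.61 to 0.79 when any library was left out. It was the only host called higher in the blocked edgeR fit. The other proteins of the channel entry were not called. Rps3 (103 and 110 CPM in the IP against 147 and 111 in total RNA) was at -0.26 ± 0.11 and Rps9 at -0.0067 ± 0.14. Counts of Rps2 over those of Rps3 were 6.02 and 5.53 in the IP against 2.74 and 3.21 in total RNA, which did not overlap. An exact permutation test over 2 against 2 libraries cannot go below 0.333 (two-sided), and this ratio gave that value.

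The 12 other members called higher held no small RNA in counted exons. Rpl9 measured 76.8 and 90.8 CPM in the IP against 51.4 and 67.1 in total RNA, at 0.50 ± 0.11 (edgeR adjusted p = 3.3e-04). Rpl9, Rplp1 and Rps2 were called in each of the 9 other fits with the block as well. Much of the mRNA of these genes has copies among the transcripts of other loci. The share of 50-base mRNA windows without such a copy was 6.68% in Rpl9, 40.0% in Rplp1 and 28.7% in Rps2. The median of the members tested was 56.0%.

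The remaining higher calls were less firm. Rps15a (17.8 and 22.3 CPM in the IP against 9.35 and 16.4 in total RNA) was at 0.64 ± 0.19 and Rpl34 (19.7 and 25.3, 14.5 and 15.3) at 0.60 ± 0.18, with edgeR adjusted p of 0.00940 and 0.00976. Scaling by library totals alone lost both calls. Rpl15 (25.9 and 29.3 CPM in the IP against 18.3 and 22.0 in total RNA) was at 0.45 ± 0.16, with an edgeR adjusted p of 0.0347. It kept its call in 4 of the 8 other blocked fits that gave it an adjusted p. The other 5, among them Rpl31, Rps19 and Rps29, lay between 0.44 and 0.36. Of these Rps19 alone was also called with the GC and length offset, at 0.53 with an edgeR adjusted p of 0.00465. In fits without the block Rps15a moved to 0.28 without total RNA replicate 1 and to 1.09 without total RNA replicate 2. Rpl9 moved to 0.32 without total RNA replicate 1, Rplp1 to 0.32 without total RNA replicate 2 and Rpl34 to 0.39 without IP replicate 2. Among the 5 lowest of the higher calls the values then ran from 0.10 for Rps29 without IP replicate 1 to 0.71 for Rps19 without total RNA replicate 1.

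The small subunit was set against the large subunit. Among the 32 small-subunit members 8 were called higher (25.0%) and 1 lower (3.12%), with a median log2 fold change of 0.14. Among the 48 large-subunit members tested 5 were called higher (10.4%) and 13 lower (27.1%), with a median of 0.038. With the GC and length offset the calls were 4 higher and 5 lower in the small and 3 higher and 14 lower in the large subunit. In the 24 small-subunit members that are not hosts 7 were higher and 0 lower, with a median of 0.18. In the 33 such members of the large subunit 5 were higher and 2 lower, with a median of 0.074. Over all genes tested 6.63% were higher and 7.55% lower. At an unadjusted p under 0.05 edgeR gave 10 of the 24 and 12 of the 33, against 26.1% of all genes tested. With the GC and length offset 3 of the 24 were higher and 1 lower, at a median of 0.058. Of the 33, 3 were then higher and 3 lower, at a median of -0.051. The offset called 5.17% of all genes higher and 2.14% lower. DESeq2 gave an adjusted p to 18 of the 24 and 20 of the 33. It called 1 of the 18 and 2 of the 20 higher and 0 lower. Its shares over all genes that had an adjusted p were 3.37% higher and 8.16% lower. Both IP libraries were above both total RNA libraries in 34.4% of small-subunit and 22.9% of large-subunit members, against 16.9% of all genes tested. They were below in 12.5% and 27.1%, against 14.9% of all genes. Among the members that are not hosts the subunits were closer. Both IP libraries were then above in 37.5% of small-subunit and 33.3% of large-subunit members, and below in 8.33% and 12.1%.

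Summed counts of the small subunit over those of the large subunit were 0.914 and 0.924 in the IP against 0.572 and 0.698 in total RNA. The groups did not overlap, and the exact permutation p was 0.333 (two-sided), the smallest that 2 against 2 libraries allow. As a share of member counts the small subunit held 47.8% (95% Wilson interval 47.4 to 48.1) and 48.0% (47.6 to 48.5) in the IP, and 36.4% (35.8 to 37.0) and 41.1% (40.5 to 41.7) in total RNA. These intervals cover counting error only. Without Rps2 the ratio was 0.649 and 0.639 in the IP against 0.456 and 0.550 in total RNA. Without the 23 hosts it was 0.753 and 0.699 in the IP against 0.691 and 0.685 in total RNA, a mean difference of 0.076 on the log2 scale in place of 0.54 for all members. The groups did not overlap in any of the 3 versions, but the gap was narrowest without the hosts.

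**Figure D4:**
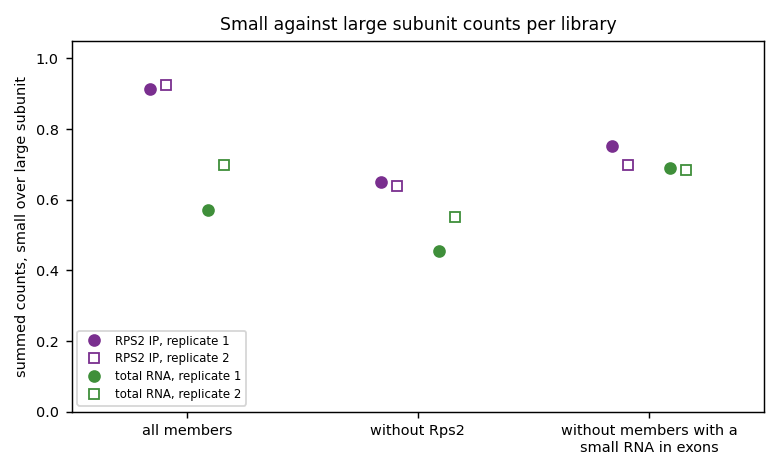
Summed counts of small-subunit members divided by those of large-subunit members in each library, for all 84 members, without Rps2, and without the 23 hosts. Purple points are RPS2 IP and green points total RNA. The groups are apart at 0.914 and 0.924 against 0.572 and 0.698 with all members, and come close at 0.753 and 0.699 against 0.691 and 0.685 without hosts.

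The P stalk, the flexible arm that recruits the GTPases of elongation, split between its members. Rplp1 measured 77.8 and 80.8 CPM in the IP against 63.2 and 44.7 in total RNA, at 0.57 ± 0.12 (edgeR adjusted p = 3.7e-05). Rplp0, the protein that anchors the stalk, measured 83.9 and 74.9 CPM in the IP against 113 and 92.7 in total RNA, at -0.37 ± 0.11 (edgeR adjusted p = 0.00889). Neither is a host, and in both the groups did not overlap. Rplp2, a host of Snora52, was not called at 0.22 ± 0.11. Counts of Rplp1 over Rplp0 were 0.927 and 1.08 in the IP against 0.561 and 0.482 in total RNA, without overlap and with the exact permutation p of 0.333. Rplp0 was at -0.22 without total RNA replicate 1, in a fit without the block.

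Rplp0 and Rpl29 were the 2 members called lower that are not hosts. Rpl29, a large-subunit protein with many processed pseudogenes, was named after its value was seen. It measured 35.1 and 31.4 CPM in the IP against 48.1 and 44.1 in total RNA, at -0.47 ± 0.13 (edgeR adjusted p = 0.00440). Both replicates were close within each group, and the log2 ratio was -0.45 in pair 1 and -0.48 in pair 2. Both genes lost the call in DESeq2 and when libraries were thinned to the smallest total.

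Rpl5 and Rpl11, which reach the large subunit together with its smallest ribosomal RNA and can also bind Mdm2, the regulator of p53, differed as well. Rpl5, a host of Snord21, measured 31.2 and 28.7 CPM in the IP against 62.8 and 36.0 in total RNA, at -0.68 ± 0.13 (edgeR adjusted p = 1.3e-05). Rpl11 measured 34.4 and 33.1 CPM in the IP against 37.4 and 28.6 in total RNA, at 0.043 ± 0.14, and its groups overlapped. At the mRNA channel exit Rps14, Rps26 and Rps28 were not called, with log2 fold changes of 0.16, 0.29 and 0.17. Of the 9 members at the exit tunnel and its rim Rpl31 was called higher and Rpl4 lower, and the others lay between -0.081 and 0.48. In fits without the block Rpl5 was at -0.26 without total RNA replicate 1 and at -1.07 without total RNA replicate 2.

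Rpl10a and Rpl22, which the study fused to an editing enzyme beside RPS2, were not called. Rpl10a measured 28.4 and 30.6 CPM in the IP against 28.3 and 27.3 in total RNA, at 0.089 ± 0.15 (edgeR adjusted p = 0.761). Rpl22 measured 22.8 and 25.4 CPM in the IP against 18.3 and 18.6 in total RNA, at 0.39 ± 0.17 (edgeR adjusted p = 0.103). Both IP libraries of Rpl22 were above both total RNA libraries. Rps7, followed in the study by other assays, measured 46.5 and 48.1 CPM in the IP against 36.3 and 43.2 in total RNA, at 0.25 ± 0.13 (edgeR adjusted p = 0.188).

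Some ribosomal proteins have a second gene. Rps27l, a paralogue of Rps27 that responds to p53, measured 7.44 and 7.36 CPM in the IP against 3.79 and 3.95 in total RNA. At 0.93 ± 0.33 (edgeR adjusted p = 0.0341) it was the member with the highest fold change called, from only 17 and 24 counts in total RNA. It lost the call in 4 of the 8 other blocked fits that gave it an adjusted p. Rps27 was not called, at 11.4 and 14.2 CPM in the IP against 10.9 and 13.5 in total RNA and a log2 fold change of 0.07 ± 0.22. Counts of Rps27l over Rps27 were 0.652 and 0.519 in the IP against 0.347 and 0.293 in total RNA, without overlap (exact permutation p = 0.333).

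The paralogues Rpl22l1 and Rpl7l1 were not called, and in both the IP library of replicate 2 stood above the other 3. Rpl22l1 measured 1.52 and 3.68 CPM in the IP against 1.78 and 1.32 in total RNA, and Rpl7l1 measured 11.2 and 26.1 in the IP against 12.9 and 15.6 in total RNA. Their log2 ratios were -0.20 in pair 1 for both, and 1.34 and 0.73 in pair 2. Rpl10l, Rpl3l, Rpl39l and Rpl36al were the 4 members that were not tested. Rpl10l had 0 counts in every library, Rpl3l and Rpl39l had 1 count in IP replicate 1 alone, and Rpl36al had 1 to 3 counts per library. Rpl3, whose paralogue Rpl3l belongs to muscle, was at 0.11 ± 0.11, Rpl7 was at -0.17 ± 0.14, Rpl36a at -0.21 ± 0.21, Rps4x at 0.073 ± 0.13 and Rpl39 at 0.48 ± 0.29, none of them called.

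Levels were then compared between members per kilobase of exonic length, as CPM per kilobase. In total RNA they ran from 0.778 for Rpl22l1 to 210 for Rps15, a 270-fold range, with a median of 21.8 and quartiles of 11.8 and 51.4. The median of all genes tested was 3.67. The medians of the subunits in total RNA were 18.7 for the small and 23.5 for the large subunit, and in the IP 22.5 and 20.7. Rps15 and Rps2 led, at 210 ± 29.5 (Rps15) and 207 ± 18.3 (Rps2) in total RNA (SD, n = 2), so these neighbours did not differ beyond their spread. This order is per listed exonic length and changed with other lengths. Rpl4 followed at 119 and 121. In the IP the order of the first 2 turned, with Rps2 at 339 and 332 and Rps15 at 240 and 172. The lowest 3 were Rpl35a at 2.08 and 2.14, Rps15a at 1.49 and 2.62, and Rpl22l1 at 0.896 and 0.661 CPM per kilobase of total RNA.

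**Figure D5:**
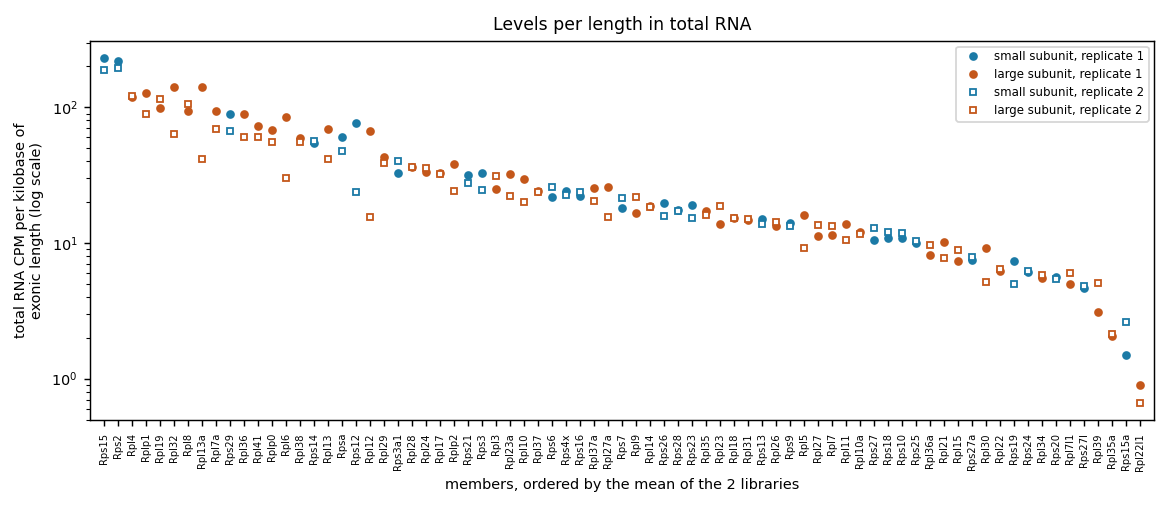
Total RNA level of 75 of the 80 members tested in CPM per kilobase of exonic length, on a log axis, ordered by the mean of the 2 libraries. Filled circles are replicate 1, open squares replicate 2, blue the small and orange the large subunit. Levels fall from 210 on average for Rps15 to 0.778 for Rpl22l1, and the wide gaps between circle and square belong to hosts such as Rpl12 and Rpl13a.

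These levels depend on what could be counted. Reads that aligned to several places were not counted, and processed pseudogenes copy most ribosomal protein mRNAs. At least 1 annotated pseudogene shared an exact 50-base stretch with 79 of the 80 members tested, with a median of 9 pseudogenes and up to 120 for Rpl7a. In the principal mRNA a median of 56.0% of the 50-base windows had no exact copy in a transcript from another locus, with 1.35% in Rps27, 6.68% in Rpl9 and 97.0% in Rps3. In 15 members the share was under 20%. Pseudogenes outside the transcript annotation were not searched, so the true shares can be lower. Values of members with low shares are uncertain, since what was counted came from few stretches of the mRNA or from longer annotated transcripts.

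The Spearman correlation of that share with the log2 fold change was 0.117 over the 80 members and 0.176 over the 57 that are not hosts. Of the 47 members with at least 50% such windows in the principal mRNA 8 were called higher and 8 lower, with a median log2 fold change of 0.097. Of the 33 below 50% 5 were higher and 6 lower, with a median of 0.043. The shares of all genes tested were 6.63% higher and 7.55% lower. Other blocked fits split the higher calls differently. DESeq2 gave an adjusted p to 35 of the 47 and 24 of the 33. It called 0 of the 35 and 4 of the 24 higher, against 3.37% of all genes that had one. Library totals gave 0 of the 47 and 4 of the 33, against 2.29% of all genes. With the GC and length offset the higher calls were 3 and 4, against 5.17% of all genes. Lower calls were 5 and 3 in DESeq2, 8 and 6 with library totals, and 11 and 8 with the offset. Those 3 fits called 8.16%, 7.12% and 2.14% of all genes lower. Levels in total RNA per kilobase had a Spearman correlation of -0.110 with the share and of -0.457 with exonic length, which ran from 404 to 6270 bases. Per kilobase of the principal mRNA, in place of all annotated exons, Rps2 ranked 1st, Rps15 2nd and Rpl13 3rd. Rps15a was then 80th and Rpl22l1 79th, whereas Rpl35a moved from 78th to 72nd. Per kilobase of 50-base windows without a copy elsewhere the order at the top changed, with Rpl36, a large-subunit protein, at 399, Rps2 at 337 and Rps15 at 302. With 30-base windows Rpl36 was at 1401, Rplp1 at 450, Rps15 at 428 and Rps2 at 367, and with 75-base windows Rps2 was at 309, Rpl36 at 258 and Rps15 at 248. For the members that are not hosts the correlation of the log2 fold change with GC content was -0.339.

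Other genes of the same programme were read beside the members. The list holds genes such as Fau and Rack1, which also encode ribosomal proteins, with elongation and initiation factors and other 5'TOP mRNAs. Of these 18 genes 0 were called higher and 1 lower, Eef1d at -0.39 ± 0.11 (edgeR adjusted p = 0.00809), and 4 had an unadjusted p under 0.05, which is below the 26.1% of all genes. The list had a median of -0.034, which was -0.12 with library totals and -0.13 under the offset for GC and length, and DESeq2 called 0 of the 16 to which it gave an adjusted p, with 2 at an unadjusted p under 0.05. Rack1, which docks on the small subunit, measured 113 and 110 CPM in the IP against 129 and 112 in total RNA. Eef1a1, the factor that brings aminoacyl-tRNA to the ribosome, was at 742 and 841 CPM in the IP against 664 and 844 in total RNA. Of 9 regulators of 5'TOP translation 2 were called lower, against 7.55% of all genes tested. They were Mtor at -0.43 ± 0.098 (edgeR adjusted p = 3.0e-04) and Tsc2 at -0.28 ± 0.10 (edgeR adjusted p = 0.0453). The list had a median of -0.28. With the GC and length offset edgeR called 0 of the 9, with 0 at an unadjusted p under 0.05, and the median was -0.10. Library totals and DESeq2 each left 1 call, in DESeq2 among the 5 to which it gave an adjusted p. Larp1, which binds the 5'TOP motif, was not called at -0.16 ± 0.10. Of 77 mitochondrial ribosomal protein genes tested, whose products join ribosomes without RPS2 but whose mRNAs are read in the cytosol, 1 was called higher and 0 lower. It was Mrps23 at 0.76 ± 0.23 (edgeR adjusted p = 0.0121), and 10 of the 77 had an unadjusted p under 0.05, again below the 26.1% of all genes. The list had a median of 0.15. In edgeR the only call was lost with the GC and length offset (median 0.067, 3 with an unadjusted p under 0.05) and with library totals (median 0.062, 5 with an unadjusted p under 0.05).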

How the data were processed

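The deposited tables were made, per the file headers, with featureCounts 1.5.3 in stranded mode against the mm10 annotation of a single-cell reference package, after trimming with cutadapt and end-to-end alignment with STAR. The deposited values are raw counts per gene, with the exonic length of each gene. Reads at several loci or in several genes were not counted, and no removal of PCR duplicates was named. No ribosomal RNA reference was used here.

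All 31053 genes entered edgeR 4.0.16 under R 4.3.3 (filterByExpr, TMM, glmQLFit, glmQLFTest, two-sided, threshold 0.05 after Benjamini-Hochberg adjustment over 12336 genes). The methods take total RNA from each sample ahead of its pulldown, which makes the replicate number a block, and deviations from the group means had a correlation of 0.733 between same-numbered libraries. The blocked fit left 1 residual degree of freedom and infinite prior degrees of freedom, so all genes share its dispersion trend (coefficient of variation 7.93%). Ratios within pairs are differences of log2 CPM with a prior count of 2. DESeq2 1.42.0 and limma-voom (limma 3.58.1) were alternatives. CPM are scaled by effective library size. Nothing in the labels says whether replicates came from separate dissections, so p-values concern these libraries alone. In the blocked edgeR fit they rest on the shared dispersion trend, after the replicate difference is taken out, and not on the spread of a given gene.

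Symbols, small RNAs and transcripts were taken from GENCODE M21. The principal mRNA was the protein-coding transcript of best APPRIS rank, then the longest. The set of members and the lists were chosen with earlier results of these data known, although the rule that picks each member uses its name only. Members named were those the study used, the 8 highest and 8 lowest calls, hosts, paralogue pairs, structural groups and the 3 highest and lowest levels. Rpl29, Rps19 and Rps29 were named after their values were seen. Values of some genes that this rule covers are not reported here, and the figures leave them out, while counts and medians over lists include them.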

Additional observations from a re-analysis of the deposited data

How the results depend on the processing

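Counts of called members fell under several settings. Against 13 higher and 14 lower in the fit with the replicate block, the fit without the block gave 0 and 0, with 8 unadjusted p under 0.05. Higher calls numbered 4 with library totals only, 6 after thinning to the smallest library, 7 with the GC and length offset, 4 in DESeq2, 7 in limma-voom and 6 at an adjusted p under 0.01. Lower calls fell to 8 in DESeq2, where 382 of all genes were lower. Without Gm42418 and the mitochondrially encoded genes the calls stayed at 13 higher and 14 lower, with 821 and 943 of all genes. Leaving out each library in turn, without the block, left a group with no replicate, so only fold changes are given for those fits. The median log2 fold change of the members moved from 0.059 to -0.027 with library totals, -0.10 with the GC and length offset and 0.12 without hosts, and ran from -0.024 to 0.12 with a library left out. The median of the small subunit moved from 0.14 to 0.057 with library totals, 0.022 with the GC and length offset, 0.18 in pair 1 alone and 0.18 without hosts, and from 0.11 to 0.18 with a library left out. That of the large subunit moved from 0.038 to -0.043 with library totals, -0.02 after thinning, -0.15 with the offset and -0.065 in pair 2 alone, and from -0.093 to 0.091 with a library left out. The small median stayed above the large one in every setting run. The difference was 0.16 after thinning, 0.17 with the offset, 0.18 in pair 1, 0.21 in pair 2 and 0.051 to 0.22 with a library left out. For members with at least 50% windows free of an exact copy, a choice added after seeing the data, it was 0.13 with 50-base and 0.13 with 30-base windows over all transcripts. In the principal mRNA it was 0.15, the small median 0.18 and the median of all members 0.097. The planned search for windows unique in the genome was not run, and copies among annotated transcripts were sought in its place. With a library left out Rpl12 ran from -1.66 to 0.43 and Rpl32 from -1.08 to 0.079, both positive without total RNA replicate 1, and Rpl12 was at 0.085 in pair 2 alone. The other 25 of the 27 called members kept their sign in all 14 alternative fits, and 12 kept their call in every other blocked fit that gave them an adjusted p. The causes were not tested. Members with few counts, down to 8 in a total RNA library, allow only large differences to be seen.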
